A study of Mus musculus with 2 samples.

Results

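The microRNA cluster in an intron of Sfmbt2 was examined in embryonic mouse midbrain, together with the copies of the same families elsewhere in the genome. Its members were taken by name alone: all genes of the count tables whose GENCODE symbol is Mir466, Mir467, Mir669 or Mir297 with any letter and copy number. The rule found 69 of the 1973 genes in the tables, 59 of them inside Sfmbt2 on its own strand and 10 elsewhere. The data are microRNA sequencing of midbrain from mouse embryos of strain B6NCrl at embryonic day 12.5, both sexes mixed, with no treatment. Tissue of 120 embryos was pooled for replicate 1 and of 88 embryos for replicate 2, labelled as biological replicates. They form 1 group, so levels are described and the 2 libraries are compared with each other, not with another condition.

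MicroRNAs are cut from hairpins in longer transcripts, first by Drosha in the nucleus and then by Dicer, and the mature strand guides Argonaute to messenger RNAs through its seed, bases 2 to 8. Sfmbt2 encodes a Polycomb group protein. In the mouse it is imprinted, read from the paternal copy, and best known for its part in the placenta, where the microRNAs of its intron are also studied. The intron cluster is an expansion of rodents, built from tandem copies of a few hairpins rich in alternating TG and CA bases. Because a microRNA read is a mature strand of nearly fixed length, levels were compared between hairpins without dividing by length.

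Replicate 1 held 4629302 and replicate 2 held 2805487 reads assigned to a microRNA gene on its own strand. Levels are given as counts per 1000000 of these reads (CPM), with mean ± SD over the 2 libraries. A count of 0 allows a level of up to 0.648 CPM in replicate 1 and 1.07 CPM in replicate 2, from 3 counts per library, covering counting error only. Reads that aligned to more than 1 place, 33.4% of all reads in each library, were assigned to no gene. A hairpin that lacks sequence of its own can therefore be read at 0 whatever its true level, and each level here is that of uniquely aligned reads.

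On GRCm38, the assembly also called mm10, Sfmbt2 lies on chromosome 2 from 10370510 to 10595253 on the plus strand. The 59 members span 51.62 kb, from 10466663 to 10518279. All of them lie in 1 intron, the 10th of the protein-coding transcript Sfmbt2-201, which has 23 exons. The intron held 20 Mir466, 20 Mir669, 14 Mir467 and 5 Mir297 members. The 14 hairpins named Mir467 recurred with a median spacing of 2450 bases between starts, from 1909 to 4880 bases. The widest spacing, from Mir467a-9 to Mir467a-10, holds the unnamed hairpin Gm25022 (10500822 to 10500904). Its bases are the same as those of Mir467a-2. A step from 1 base to the next changed between purine and pyrimidine at a median of 86.6% of steps in the 69 members, against 43.8% in the other genes with a hairpin sequence. The share ran from 64.3% to 97.3% over the members. Some of the other genes lay above that range, such as Gm22030 at 100%, so the trait is not particular to the members. Those other genes include the 48 unnamed hairpins inside Sfmbt2.

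Mir467c and Mir467e are shown first. They are among the 3 hairpins with most assigned reads in the cluster and differ from each other in few letters. Capitals mark the bases at which the pair differs inside the overlap of a pairwise alignment. The tail of Mir467c beyond the end of Mir467e has no counterpart there and stays in small letters. All sequences of the cluster are hairpins from GENCODE release M21, written as DNA on the gene's own strand, since the sequence table used here holds mature strands for 8 of the 69 members and none for members in Sfmbt2.

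Mir467c: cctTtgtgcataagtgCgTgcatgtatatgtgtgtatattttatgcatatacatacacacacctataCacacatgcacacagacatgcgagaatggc

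Mir467e: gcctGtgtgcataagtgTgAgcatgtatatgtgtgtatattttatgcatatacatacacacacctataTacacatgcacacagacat

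The pair matched at 82 of 86 aligned bases. The letters TAAGTGC, searched on the hairpin's own strand, occurred in 13 of the 14 Mir467 hairpins of the cluster. Several of these 13 are exact copies, as described below. Over all 2202 annotated hairpins, the 13 included, TAAGTGC occurred in 26, or 1.18%. Mir467e, the exception, held TAAGTGT, which occurred in 0.636% of the 2202. TAAGTGT equals in DNA letters the seed of miR-467h, a copy on chromosome 9 whose mature strand is in the RefSeq table (build GRCm38.p6).

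mmu-miR-467h: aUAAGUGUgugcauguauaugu

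Capitals mark the seed there. The mature strand of miR-467h as a whole was found in 3 annotated hairpins, Mir467h and the unnamed genes Gm25510 and Gm26303, none of them in Sfmbt2. A match of letters is a description and does not show which strand of a hairpin the reads came from.

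Another 6 hairpins with at least 10 counts in both libraries follow, each against the most similar other annotated hairpin, named after the gene. Capitals mark differing bases inside the aligned overlap only. Bases beyond the overlap stay in small letters although they have no counterpart in the other hairpin, as at the start of Mir669e. Whether a read can be placed depends on all other hairpins, which is described further below.

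Mir669o, against Mir669a-2: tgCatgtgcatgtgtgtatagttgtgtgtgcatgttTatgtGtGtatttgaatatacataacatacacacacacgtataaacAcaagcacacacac

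Mir669l, against Mir669d: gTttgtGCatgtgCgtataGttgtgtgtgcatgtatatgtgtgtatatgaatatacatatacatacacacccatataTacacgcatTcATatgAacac

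Mir669c, against Mir669f: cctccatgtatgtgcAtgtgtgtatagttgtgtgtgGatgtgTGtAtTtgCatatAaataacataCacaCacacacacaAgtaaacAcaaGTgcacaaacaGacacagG

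Mir669e, against Mir669a-3: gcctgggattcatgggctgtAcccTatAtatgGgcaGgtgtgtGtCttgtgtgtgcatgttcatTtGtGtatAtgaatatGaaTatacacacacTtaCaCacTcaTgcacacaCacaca

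Mir466n, against Mir466d: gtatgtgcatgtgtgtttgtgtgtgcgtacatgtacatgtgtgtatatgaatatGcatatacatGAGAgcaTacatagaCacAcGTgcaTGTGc

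Mir669h, against Mir669i: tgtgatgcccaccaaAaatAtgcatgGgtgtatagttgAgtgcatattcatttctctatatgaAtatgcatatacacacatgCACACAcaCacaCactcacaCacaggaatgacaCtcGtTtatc

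Mir669o differed from Mir669a-2 at 5 of 95 aligned bases. In Mir669e, the least similar of the 6 to its nearest hairpin, 81 of 107 aligned bases matched. Differences in Mir669l lay near both ends.

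The 59 members in Sfmbt2 together reached 6007 ± 8.45 CPM (SD, n = 2), with 6001 CPM in replicate 1 and 6013 CPM in replicate 2. This was 0.601% of all assigned reads. Taken as 1 gene, the cluster would rank 39th in the tables. At least 1 read in either library was assigned to 24 of the 59, reads in both libraries to 19, and at least 10 counts in both to 10. Those 10 genes are called quantified here. They were 16.9% of the members in Sfmbt2, beside 19.3% of all 1973 genes. Their share of the reads assigned to the cluster was 99.8% in replicate 1 and 99.9% in replicate 2. Over all 1973 genes, 746 had a read in either library and 643 in both.

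By uniquely aligned reads, Mir467d was the most abundant member, at rank 76 of all genes. It had 1810 CPM in replicate 1 (95% Wilson interval 1772 to 1849) and 1796 CPM in replicate 2 (1747 to 1846), a mean of 1803 ± 9.96 CPM (SD, n = 2). The Mir467a copies, which lack sequence of their own as described below, can hardly be counted, so no rank against them is given. Mir467c had 1790 CPM in replicate 1 and 1641 CPM in replicate 2, or 1716 ± 105 CPM. The intervals of Mir467d and Mir467c overlapped in replicate 1, where that of Mir467c ran from 1752 to 1829, and not in replicate 2, where it ran from 1594 to 1689. Mir467e followed with 1206 CPM in replicate 1 and 1326 CPM in replicate 2, or 1266 ± 84.9 CPM, below both in either library. These 3 hairpins together held 80.1% of the cluster's uniquely aligned reads in replicate 1 and 79.2% in replicate 2.

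The Mir669 members came next, led by Mir669o with 567 CPM in replicate 1 and 562 CPM in replicate 2 (565 ± 3.38 CPM, SD, n = 2). Mir669l had 419 CPM in replicate 1 and 465 CPM in replicate 2, or 442 ± 32.3 CPM. Mir669c had 118 and 132 CPM, or 125 ± 9.86 CPM. The values of these 3 did not overlap with each other in the 2 libraries. Mir669e, with 35.6 and 36.4 CPM, stood close above Mir466n, the only quantified Mir466 member, with 30.2 and 31.4 CPM, and the intervals of that pair overlapped in each library. Mir669h had 7.99 and 11.0 CPM. Mir297a-2, the only quantified Mir297 member, had 6.70 and 5.70 CPM, from 31 and 16 reads, and its intervals overlapped with those of Mir669h in each library. All 10 genes held the same rank in both libraries.

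**Figure D1:**
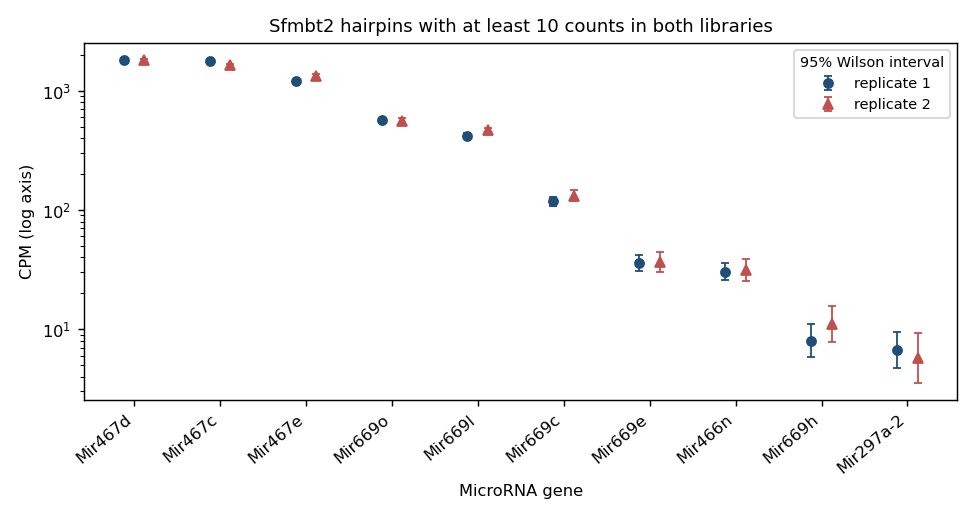
CPM (log axis) of the 10 members in Sfmbt2 with at least 10 counts in both libraries, circles for replicate 1 and triangles for replicate 2, bars showing 95% Wilson intervals of counting error. The levels fall from 1803 CPM for Mir467d to 6.20 CPM for Mir297a-2. On the log axis the replicates lie furthest apart for Mir669h, with 7.99 CPM in replicate 1 and 11.0 CPM in replicate 2.

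By family, the 14 Mir467 members in Sfmbt2 summed to 4787 ± 31.0 CPM (SD, n = 2) and the 20 Mir669 members to 1178 ± 41.3 CPM. The 20 Mir466 members, as many genes as Mir669, summed to 34.7 ± 1.66 CPM, and the 5 Mir297 members to 7.24 ± 0.15 CPM. These are sums of uniquely aligned reads. Members without sequence of their own, given by family below, added only 0.68 CPM in all, so the sums do not rank the families by true level. The number of quantified genes was 3 of 14 for Mir467, 5 of 20 for Mir669, 1 of 20 for Mir466 and 1 of 5 for Mir297. In Mir466, 10 of the 20 had a read in either library.

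How far each hairpin could be counted at all was then described from its sequence. Each hairpin was cut into all its stretches of 22 bases, about the length of a mature microRNA, and a window was called its own when it occurred in no other annotated hairpin on either strand. In Sfmbt2, 20 of the 59 members had no window of their own: 10 Mir467, 6 Mir466 and 4 Mir669. None of these 20 was quantified, and the only 1 with any read was Mir467a-1, with 3 reads in replicate 1 and 2 in replicate 2. Of the 39 with at least 1 own window, 10 were quantified (25.6%). Among genes of the tables without these family names, 1 of 234 with no own window was quantified (0.427%), against 23.2% of 1591 with one. The 234 are not independent of the cluster. They include 22 unnamed hairpins inside Sfmbt2, some of them exact copies of members, such as Gm25022. These shares are descriptions, and matches elsewhere in the genome, outside annotated hairpins, were not tested.

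The most repeated hairpins of the cluster were exact copies. The hairpin of Mir467a-2 was the same, base for base, in Mir467a-4, Mir467a-5, Mir467a-7, Mir467a-8, Mir467a-9 and the unnamed gene Gm25022. That of Mir467a-3 was the same in Mir467a-6 and Mir467a-10. In all, 17 members in Sfmbt2 were identical to another annotated hairpin, and all 17 had 0 reads in both libraries. The first by name is shown as an example of such a set, the hairpin that Mir466b-4 (chromosome 2, 10486423 to 10486512) shares with Mir466b-6 and an unnamed gene.

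Mir466b-4: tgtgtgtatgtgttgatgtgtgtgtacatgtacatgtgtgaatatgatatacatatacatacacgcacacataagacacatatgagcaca

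Reads were also described by position along the intron. The stretch between Mir467c and Mir467e, picked after the values were seen, held 26 members, 19 of them with no own window, and gave 10 reads in replicate 1 and 4 in replicate 2 (1.79 ± 0.52 CPM, SD, n = 2). The 11 Mir467 hairpins inside it gave 9 and 3 of these reads. Members of the stretch with own windows were also low. Mir669a-3, Mir669k, Mir669g, Mir669j and Mir466b-2 had 0 reads in both libraries. Mir467b had 6 and 1 reads, and Mir466b-3 had 1 and 1. Position and lack of own sequence cannot be told apart here. The 12 members before Mir467c had at least 1 own window each and summed to 486 ± 31.9 CPM, and the 19 members after Mir467e, 1 of them without an own window, to 2538 ± 2.49 CPM. The stretch was bounded by Mir467c (10473931 to 10474027) and Mir467e (10505721 to 10505807) by choice, and Mir467d (10507630 to 10507714) is among the 19 members after it.

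**Figure D2:**
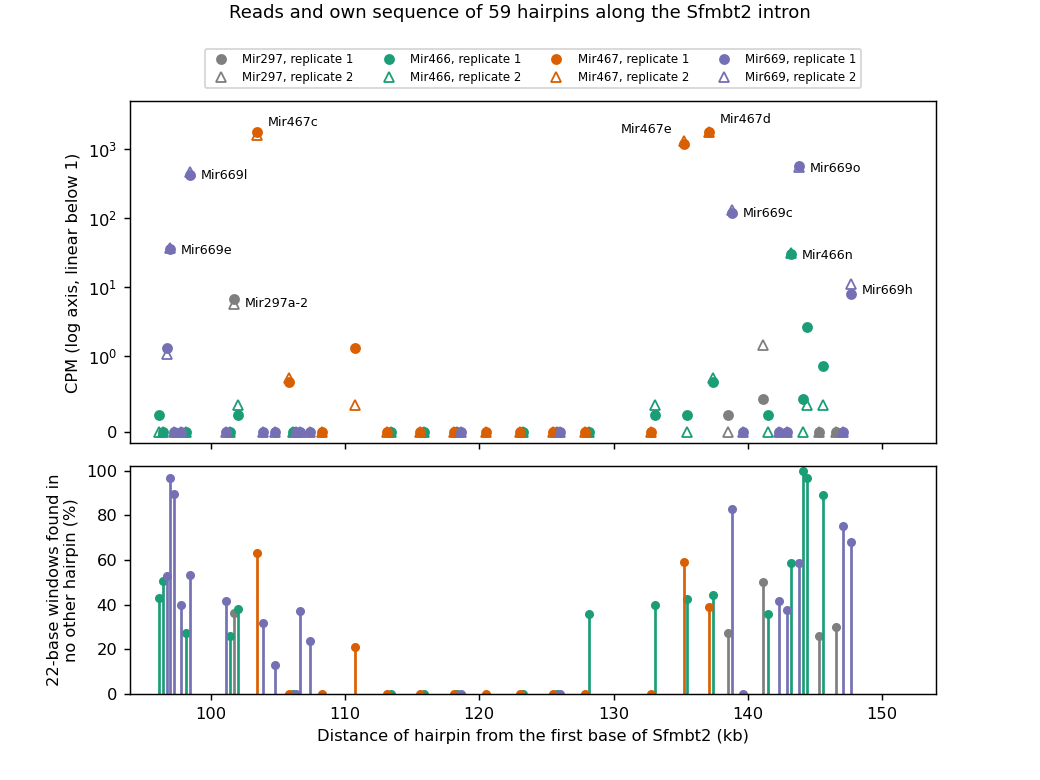
Upper plot, CPM of each of the 59 members (log axis, linear below 1) against distance from the first base of Sfmbt2 in kb, circles for replicate 1 and triangles for replicate 2, coloured by family. Lower plot, the percent of each hairpin's 22-base windows found in no other annotated hairpin. Reads lie at both ends of the cluster, and the 26 members between Mir467c and Mir467e sum to 1.79 CPM.

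Own sequence went with reads but did not assure them. Of the 35 members in Sfmbt2 with 0 reads in both libraries, 19 had no own window and 16 had at least 1. Among the 16, Mir669b had 68 own windows of 76 and Mir669i had 80 of 106, both named after their values were seen. Mir669h, the hairpin most like Mir669i, had 71 own windows of 104 and 37 and 31 reads. Mir467b had 11 own windows of 52, all among the later window starts of the hairpin, and 6 reads in replicate 1 and 1 in replicate 2. Mir467d had 25 of 64, 19 of them among the earlier window starts when the starts are split at the middle, and 8380 and 5039 reads.

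By the rule that a repeated hairpin shares 20 consecutive bases with another annotated hairpin, 67 of the 69 members were repeated and 2 were single-copy. The single-copy member in Sfmbt2 was Mir466g (10514595 to 10514674), with 2 reads in replicate 1 and 0 in replicate 2. Outside Sfmbt2 it was Mir669n (chromosome 3, 115979902 to 115979955). It lies opposite to Slc30a7, inside one of its introns, with 0 reads in replicate 1 and 1 in replicate 2. Its mature strand in the RefSeq table is shown with the seed in capitals.

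mmu-miR-669n: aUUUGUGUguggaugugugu

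Both lay at or under the level that a count of 0 allows. All 10 quantified members were repeated hairpins that differ from their copies at some bases. Since 58 of the 59 members in Sfmbt2 were repeated by this rule, no link of repeat status with level can be read from that.

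The 10 members elsewhere were almost without reads. Mir669n had its single read, and the other 9 had 0 in both libraries: Mir466f-4, Mir466i, Mir466j, Mir466k, Mir466q, Mir467f, Mir467g, Mir467h and Mir297-1. They lie on chromosomes 3, 5, 7, 9, 10, 11 and 13. Mir466q lies in an intron of Tnik on the same strand, Mir467f, Mir466i, Mir467g, Mir466k and Mir669n in introns of genes on the opposite strand, and the other 4 between genes. All 10 had own windows among annotated hairpins. A level above 0.648 CPM of uniquely aligned reads was not detected in replicate 1 for any of them. Copies of such repeat-like sequence elsewhere in the genome were not tested.

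No member had a read on the strand opposite to its annotation in either library.

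Counts of replicate 2 were set against those of replicate 1 by Fisher's exact test, two-sided, for the 380 genes with at least 10 counts in both, with Benjamini-Hochberg adjustment. That test sets the difference between 2 libraries against counting noise only. By it 3 of the 10 quantified members differed, against 54.2% of all genes tested. Mir467e (log2 ratio of replicate 2 over replicate 1 of 0.14 ± 0.03, counting SE, adjusted p = 2.0e-05) and Mir669l (0.15 ± 0.05, adjusted p = 0.0086) were higher in replicate 2, as were 27.1% of the 380 genes tested by the same adjusted threshold. Mir467c was lower in replicate 2 (-0.13 ± 0.03, adjusted p = 5.6e-06), as were another 27.1% of the 380 genes. Mir467d, the member with most assigned reads, had a log2 ratio of -0.01 ± 0.03 (adjusted p = 0.77 by the same test). The count ratio of Mir467c to Mir467e was 1.48 in replicate 1 and 1.24 in replicate 2.

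By edgeR's exact test, with a common dispersion estimated from the same 2 libraries taken as 1 group, 0 of the 10 members differed at an adjusted p under 0.05, and 0 at an unadjusted p under 0.05. That test called 1.05% of the 380 genes. Its dispersion, a coefficient of variation of 20.4%, was estimated from the very difference it tests. Small ratios could therefore hardly be called, and no conclusion is drawn from the 0. The quantified members had a median absolute log2 ratio of 0.13, beside 0.24 over all 380 genes, and the largest was 0.47 for Mir669h, from 37 and 31 reads. Nothing here shows that the levels of the members were equal in the pools. The 2 libraries are pools of the same tissue, and a change in the number of cells with these microRNAs cannot be told apart from a change in level per cell.

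**Figure D3:**
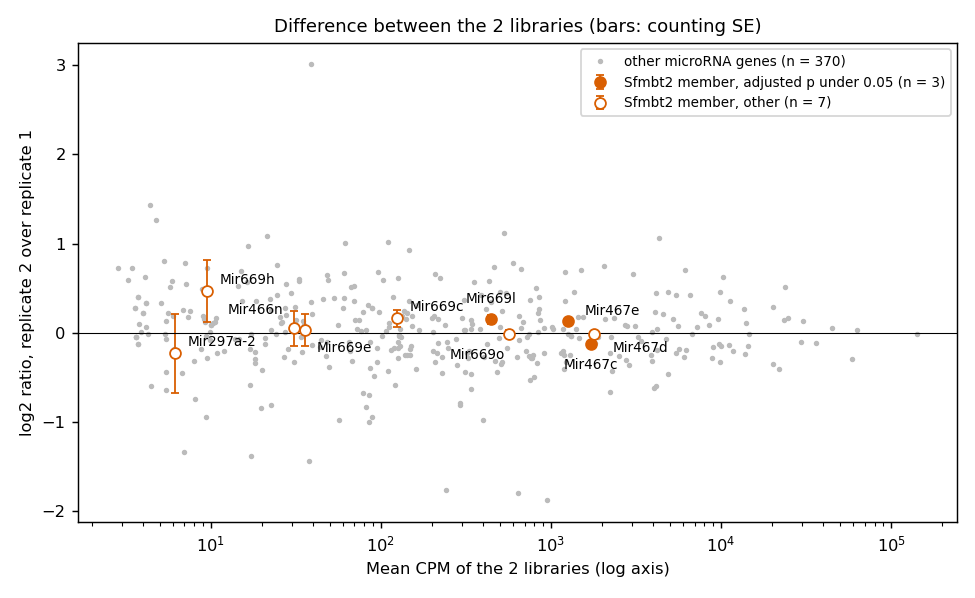
Log2 ratio of replicate 2 over replicate 1 against mean CPM (log axis) for the 10 quantified members in Sfmbt2, with bars for the counting SE, and for the other 370 quantified genes in grey. Filled circles mark Mir467c, Mir467e and Mir669l, whose adjusted p by Fisher's exact test was under 0.05, and their ratios lie between -0.13 and 0.15.

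MicroRNAs known from embryonic stem cells and trophoblast, the Mir290 to Mir295 cluster and the Mir302 and Mir367 cluster, were read from the same tables for comparison of levels. All 12 genes found by symbol had reads in both libraries, beside 643 of all 1973 genes. Mir290a, Mir291a, Mir291b, Mir292, Mir293, Mir294 and Mir295 summed to 60.4 ± 0.23 CPM (SD, n = 2), with 3 of 7 quantified, of which Mir293 was highest at 28.5 ± 2.48 CPM. The 5 Mir302 and Mir367 genes summed to 3198 ± 204 CPM, led by Mir302a at 1184 ± 24.3 CPM, below Mir467e. Of the 7 quantified genes, 1 was called between the libraries by Fisher's exact test, beside 54.2% of all 380 genes tested. It was Mir302b, higher in replicate 2 (log2 ratio 0.40 ± 0.04, adjusted p = 7.6e-26), a direction in which 27.1% of the 380 were called. By edgeR's exact test it was not called (unadjusted p = 0.355, adjusted p = 1). The median log2 ratio of the 7 quantified was 0.05, beside 0.04 over all 380 genes. The letters AAGTGC, on the hairpin's own strand, occurred in 11 of these 12 hairpins and in 13 of the 14 Mir467 hairpins of Sfmbt2. The share over all annotated hairpins, both sets included, was 4.50%. AAGTGC is part of TAAGTGC counted above, and that longer string occurred in only 3 of the 12, Mir302a, Mir302b and Mir302d. A shared stretch of letters does not show shared targets.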

How the data were processed

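Each library's deposited table holds raw counts, whole numbers of reads per microRNA gene, which the authors derived from alignments to mm10 with annotation M4, per the deposited read-me files. For the aligner and the counting program, nothing was given in the sources used here. The 3 count columns were read as either strand, own strand and opposite strand, from the layout and the values, since no source names them. The own-strand column was used. The 4 rows for reads without a gene were kept out of totals, and assigned own-strand reads were 43.1% of all reads in replicate 1 and 41.8% in replicate 2. The p-values compare these 2 libraries, not conditions.

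Symbols, positions and hairpins came from GENCODE M21 (GRCm38), which held 1894 of the 1973 identifiers. The 12 further genes of these families in that release were not analysed here. Python 3.11.15, scipy 1.17.1, Biopython 1.88, edgeR 4.0.16 and DESeq2 1.42.0 were used. Alignments left end gaps free (match 2, mismatch -2, gap opening -5, extension -1). Fisher's test with its log2 ratios, and edgeR's fold changes but not its p-values, were tested on simulated data. For Fisher's test the simulated counts held counting noise only, and false calls among unchanged genes were not recorded. Members and lists were chosen with earlier results of these data known.

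Named are members with at least 10 counts in both libraries, single-copy members, members with at least 10 opposite-strand counts (there were none), the 3 most abundant elsewhere and, in groups, the rest. Where mature strands were to be shown, hairpins are shown instead. Some hairpin sequences are not reported here. Alternatives were either-strand counts, mapped-read totals, TMM and DESeq2 size factors, other count minimums, other sharing lengths and leaving out a replicate.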

Additional observations from a re-analysis of the deposited data

Results flagged for a closer look

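Reads outside the members' counts stood above what a count of 0 allows in both libraries for 1 further hairpin of the intron and for the reads that aligned to several places. Among the 48 other annotated hairpins inside Sfmbt2, which have no microRNA family name, Gm22925 (chromosome 2, 10510791 to 10510892) had 13 reads in replicate 1 and 6 in replicate 2, a mean of 2.47 CPM, and 72 of its 81 windows of 22 bases occurred in no other annotated hairpin. Gm22072, with 6 and 2 reads, and Gm25263, with 3 and 5, passed that limit in 1 library each. The 48 together summed to 5.77 ± 0.09 CPM (SD, n = 2), and 22 of them had no own window. Reads that aligned to several places made up 33.4% of all reads on average, and how many of them came from this cluster was not tested.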

How the results depend on the processing

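The summed level in Sfmbt2, 6007 CPM, became 5861 CPM with reads of either strand, 3141 per 1000000 mapped reads, 4204 CPM without Mir467d and 0.216 CPM with single-copy hairpins only. It ran from 6001 to 6013 CPM with either replicate left out. The sum elsewhere, 0.178 CPM from 1 read, ran from 0 to 0.356 CPM, and the number of quantified members in Sfmbt2 from 10 to 11, with either replicate left out. At least 1 count in both libraries was held by 19 members in place of 10. Of the 3 members called by Fisher's exact test, 0 were called by edgeR's exact test, whose common dispersion came from the same 2 libraries. With DESeq2 size factors 2 were called, Mir669l being lost, and 89 of the 201 genes called were higher in replicate 2, against 103 of 206 with plain totals. The count of 67 repeated hairpins became 68 with 18 shared bases. The count of 20 members without an own window became 19 with windows of 25 bases, a setting chosen after seeing the data. Sharing by mature arms was not run, since mature strands of members in Sfmbt2 were not held. No paired analysis was possible because the 2 libraries form 1 group. Depth limits levels under about 1 CPM, and multimapping limits all repeated hairpins.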
